A study of Mus musculus with 29 samples.

Results

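The genes described here are 29 members of the cholesterol synthesis pathway and of the SREBP2 programme in mouse liver. They were chosen by symbol from a list of pathway enzymes, regulators and targets, and all 29 were found among the 22187 gene IDs of the deposited table. RNA sequencing covered 29 liver libraries of C57BL/6 mice that were injected with 25 mg/kg of the liver carcinogen diethylnitrosamine (DEN) at 2 weeks of age and later fed for 18 weeks. The tumour groups were labelled IL17RA-/- on a high-fat diet with alcohol (4 libraries), WT on that diet (3), labelled IL17RA-/- on the high-fat diet without alcohol (3) and WT on the high-fat diet (3). The non-tumour liver groups were labelled IL17RA-/- with alcohol (5), WT with alcohol (5), labelled IL17RA-/- on the high-fat diet (3) and WT on the high-fat diet (3). IL17RA is the receptor subunit through which interleukin-17A signals, and the label names a whole-body knockout with no cell type restriction. All groups, controls included, carried the DEN injection and the high-fat diet; the diets are called alcohol and HFD below. Which libraries come from the same animal is not stated, and the p-values below therefore rest on the variation among libraries alone.

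Cholesterol is built from acetyl-CoA in the cytosol and the endoplasmic reticulum, first through mevalonate to farnesyl diphosphate, then through squalene to lanosterol, and last through a series of demethylations, reductions and an isomerization to cholesterol. The transcription factor SREBP2, encoded by Srebf2, is held in the endoplasmic reticulum with its escort Scap by the Insig proteins while sterol is plentiful. When sterol falls, Scap carries SREBP2 to the Golgi, where the proteases encoded by Mbtps1 and Mbtps2 release the part that enters the nucleus and switches on most enzymes of the pathway. The liver is a main site of this synthesis, and there the product also feeds lipoproteins and bile acids.

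SREBP2 binds sterol regulatory elements, usually beside CCAAT boxes (bound by NF-Y) and GC boxes (bound by Sp1). RefSeq promoters on GRCm38.p6 matched 25 of the 29 members, and 3 motifs were searched on both strands in the 250 bases before each start. The element TCACNCCAC was found in 1 of the 25 members, Hmgcs1, which is 4%, beside 1.22% of 27025 genes with a promoter. In Hmgcs1 it read TCACCCCAC on the gene's strand and began 137 bases before the start. CCAAT was found in 21 of 25 members (84%), beside 37.5% of all genes, and the GC box GGGCGG also in 21 of 25 (84%), beside 35.4%. The CCAAT share was also high in some related lists, at 9 of 11 esterification, transfer and lysosomal release genes (81.8%) and 12 of 17 fatty acid synthesis genes (70.6%). In others it was nearer that of all genes. These were 5 of 13 isoprenoid and dolichol genes (38.5%) and 3 of 8 cholesterol efflux and LXR target genes (37.5%). CCAAT was in 2 of 4 sterol-regulated degradation genes (50%) and 1 of 4 bile acid synthesis genes (25%). The GC box was in 7 of 11 esterification, transfer and lysosomal release genes (63.6%), 10 of 17 fatty acid synthesis genes (58.8%) and 9 of 13 isoprenoid and dolichol genes (69.2%). It was also in 3 of 4 sterol-regulated degradation genes (75%), 2 of 4 bile acid synthesis genes (50%) and 3 of 8 cholesterol efflux and LXR target genes (37.5%). A member with several promoters was counted once if any of them held the motif. A match is a string of letters and not a shown binding site, and no match says only that these letters are not in the window. The stretches shown lie just upstream of the start and are read along the gene's strand; the start is RefSeq's, which for some genes differs from the gene coordinates given further on. They were chosen to show the Hmgcs1 element, the boxes of enzymes from each segment (Idi1, Mvk, Lss and Cyp51), and the promoters of Srebf2 and Ebp, whose levels differed most steadily between tissues in opposite directions. Capitals mark CCAAT, its reverse complement ATTGG and the Hmgcs1 element. They lie at chr13:119690151-119690350 (plus strand), chr13:8885506-8885605 (plus), chr5:114444169-114444268 (plus), chr10:76531505-76531604 (plus), chr5:4104698-4104797 (minus), chr15:82147129-82147268 (plus) and chrX:8193513-8193612 (minus).
Hmgcs1: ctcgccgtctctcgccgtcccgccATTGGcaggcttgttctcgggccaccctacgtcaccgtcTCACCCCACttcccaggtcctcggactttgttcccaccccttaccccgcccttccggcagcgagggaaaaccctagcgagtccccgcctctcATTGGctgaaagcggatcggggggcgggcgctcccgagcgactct
Idi1: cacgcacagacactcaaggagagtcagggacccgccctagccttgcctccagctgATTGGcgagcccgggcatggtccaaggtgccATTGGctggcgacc
Mvk: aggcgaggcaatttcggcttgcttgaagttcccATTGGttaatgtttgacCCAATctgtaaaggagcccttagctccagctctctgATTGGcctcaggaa
Lss: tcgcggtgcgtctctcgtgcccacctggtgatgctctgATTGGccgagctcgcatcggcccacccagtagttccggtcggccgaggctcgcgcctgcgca
Cyp51: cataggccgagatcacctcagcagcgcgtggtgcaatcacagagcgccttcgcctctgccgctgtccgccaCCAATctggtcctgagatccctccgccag
Srebf2: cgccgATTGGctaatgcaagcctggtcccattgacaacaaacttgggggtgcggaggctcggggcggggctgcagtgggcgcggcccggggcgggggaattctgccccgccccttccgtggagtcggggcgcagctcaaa
Ebp: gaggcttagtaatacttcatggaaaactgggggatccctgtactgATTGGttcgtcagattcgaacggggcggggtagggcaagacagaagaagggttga

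Values are CPM, a gene's counts scaled to 1000000 per library, and libraries held between 3213695 and 9660584 counts. A floor of 3 counts came to 0.311 to 0.934 CPM over the libraries and covers counting error only; all 29 members were above it in all 29 libraries and passed the filter in each comparison. Il17ra, the gene named by the label, was detected in every library. It averaged 50.4 ± 6.33 CPM (SD, n = 4) in labelled and 33.2 ± 0.753 CPM (n = 3) in WT tumours on alcohol, and 59.4 ± 4.45 CPM (n = 3) against 32.8 ± 13.8 CPM (n = 3) in HFD tumours. In non-tumour liver it averaged 26.1 ± 8.39 CPM in labelled against 27.5 ± 10.2 CPM in WT livers on alcohol (n = 5 each), and 24.5 ± 10.3 against 26.3 ± 1.02 CPM on HFD (n = 3 each). The labels do not give the deleted exons, so a value over the whole gene does not check the genotype; the group is called by its label, and directions between genotypes are between labels. No hepatocyte or Kupffer cell marker was at 0 in any library, and the oncofetal marker list summed to 402 to 1365 CPM in tumours, against 6.14 to 520.4 CPM in non-tumour liver.

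Averaged over the 4 diet and genotype strata, tumours had more mRNA of the SREBP2 gene itself and of some enzymes in each segment of the pathway, and less of a few others. Of the 29 members, 15 rose and 4 fell in tumours relative to non-tumour liver (limma, Benjamini-Hochberg adjusted p under 0.05 over 13586 genes). Of all genes tested 63.6% changed, 36.6% upward and 27% downward, so the 19 changed members are a share close to that of all genes. The median log2 fold change was 0.36 over the members and 0.09 over all genes tested; fold changes are differences of log2(CPM + 1), which understates the change of low genes. In these bulk samples, fewer cells of a type and less RNA per cell cannot be told apart. For 0 members did all 13 tumours lie beyond all 16 non-tumour livers, beside 2.84% of all genes upward and 3.3% downward.

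**Figure D1:**
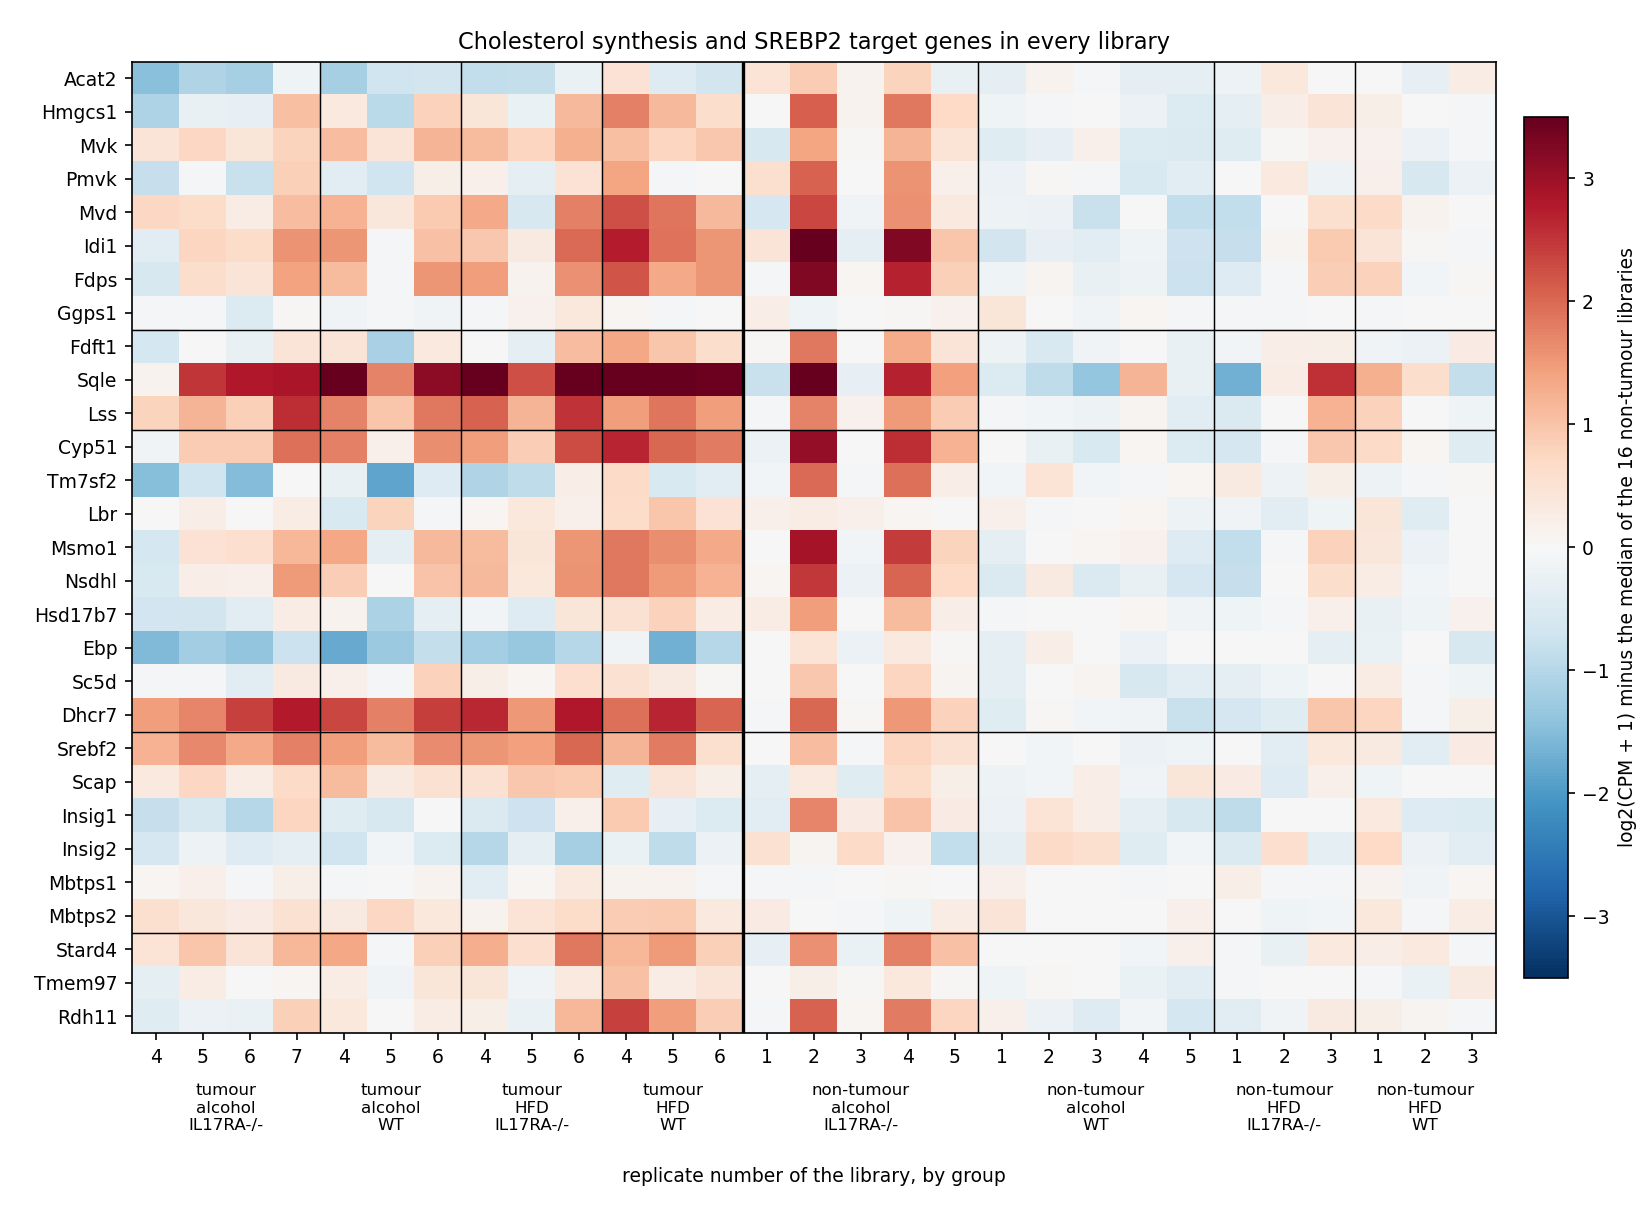
Levels of the 29 genes (rows, grouped by role) in the 29 libraries (columns, by group), as log2(CPM + 1) minus the median of the 16 non-tumour libraries, with the colour scale ending at 3.5 units either side of 0. Srebf2 is above that median in all 13 tumours and Ebp below it in all 13, and 2 columns among the labelled IL17RA-/- non-tumour livers on alcohol stand out as high across many rows.

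Srebf2 encodes the transcription factor of the programme. Srebf2 (ENSMUSG00000022463, chromosome 15, 82147181 to 82205379; gene coordinates are on GRCm38) showed the smallest adjusted p of all members. On alcohol, Srebf2 had 42.1, 58.1, 45.9 and 61.9 CPM in labelled IL17RA-/- tumours and 50.1, 38.8 and 58.0 in WT tumours, against 17.5, 37.9, 17.1, 30.1 and 26.1 in labelled IL17RA-/- and 17.7, 16.2, 17.7, 15.3 and 15.9 in WT non-tumour livers. On HFD, Srebf2 had 53.4, 48.9 and 74.2 CPM in labelled IL17RA-/- tumours and 41.3, 64.1 and 26.4 in WT tumours, against 17.5, 13.1 and 23.2 in labelled IL17RA-/- and 22.1, 13.5 and 21.5 in WT non-tumour livers. Thus 12 of 13 tumours lay above every non-tumour liver, the exception being 1 WT HFD tumour. The mean log2 fold change of Srebf2 was 1.33 ± 0.13 (SE; limma adjusted p = 5.10e-09), and it passed the test in each of the 4 strata.

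Scap encodes the escort that carries SREBP2 to the Golgi. On alcohol, Scap had 105, 136, 97.9 and 131 CPM in labelled IL17RA-/- tumours and 178, 102 and 119.7 in WT tumours, against 65.3, 104, 60.1, 129 and 94.0 in labelled IL17RA-/- and 72.3, 76.2, 96.6, 74.7 and 110.4 in WT non-tumour livers. On HFD, it had 119, 158 and 156 CPM in labelled IL17RA-/- tumours and 60.8, 113 and 94.9 in WT tumours, against 99.7, 59.9 and 92.0 in labelled IL17RA-/- and 73.7, 81.1 and 82.2 in WT non-tumour livers. Scap rose by 0.49 ± 0.12 (limma adjusted p = 0.00127), with 12 of 13 tumours above the non-tumour median and WT HFD tumours overlapping their livers. Mbtps2, the Golgi protease that makes the final cut in SREBP2, had on alcohol 19, 17.1, 15.6 and 18.7 CPM in labelled IL17RA-/- tumours and 16, 21.6 and 16.8 in WT tumours, against 15.8, 12.6, 11.9, 11.2 and 15.5 in labelled IL17RA-/- and 17.6, 12.6, 12.8, 12.9 and 14.4 in WT non-tumour livers. On HFD, Mbtps2 had 14.0, 18.2 and 20.3 CPM in labelled IL17RA-/- tumours and 24.5, 24.7 and 16.4 in WT tumours, against 12.6, 11.4 and 11.9 in labelled IL17RA-/- and 16.7, 12.1 and 15.6 in WT non-tumour livers. The rise of Mbtps2 was small, 0.44 ± 0.08 (limma adjusted p = 7.62e-05), yet all 13 tumours were above the non-tumour median and 7 above every non-tumour liver. Mbtps1, which makes the first cut, gave no call, with a lowest, median and highest level of 58.2, 81.1 and 98.3 CPM in tumours, against 70.0, 76.7 and 88.6 CPM in non-tumour liver and a change of 0.03 ± 0.06 whose sign turned when libraries were rescaled by median-ratio size factors.

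Among the Insig proteins, which hold the escort complex back, only the Insig2 gene gave a call over the strata. Insig2 fell in tumours by 0.56 on the log2 scale (SE 0.17; limma adjusted p = 0.00557). On alcohol, Insig2 had 158, 210.3, 173 and 190.1 CPM in labelled IL17RA-/- tumours and 145, 223 and 170.3 in WT tumours, against 347, 254, 378, 262 and 129.9 in labelled IL17RA-/- and 189.5, 379, 348, 176 and 223 in WT non-tumour livers. On HFD, it had 118, 186 and 106 CPM in labelled IL17RA-/- tumours and 203, 127 and 204 in WT tumours, against 167, 358 and 190.2 in labelled IL17RA-/- and 389.6, 206 and 183 in WT non-tumour livers. Of the 13 tumours, 0 were above the non-tumour median of Insig2, although 3 were below every non-tumour liver. Insig1, itself induced by SREBP2, gave no call over the strata (-0.25 ± 0.21, limma adjusted p = 0.306). On alcohol, Insig1 had 113, 133, 98.7 and 332 CPM in labelled IL17RA-/- tumours and 147, 133 and 195 in WT tumours, against 152, 640.2, 239, 393 and 239 in labelled IL17RA-/- and 169, 274, 230.3, 154 and 134 in WT non-tumour livers. On HFD, Insig1 had 139, 119 and 223 CPM in labelled IL17RA-/- tumours and 369.7, 162 and 142 in WT tumours, against 106, 200.5 and 193 in labelled IL17RA-/- and 248, 143 and 141 in WT non-tumour livers. The groups of Insig1 overlapped on both diets, and its highest values were in labelled IL17RA-/- non-tumour livers 2 and 4 on alcohol.

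The 3 enzymes between farnesyl diphosphate and lanosterol included the largest rise of any member in this comparison. Sqle (ENSMUSG00000022351, chromosome 15, 59315077 to 59331192) encodes squalene epoxidase, a rate-limiting enzyme of the pathway. On alcohol, Sqle had 9.37, 52.3, 65.1 and 68.1 CPM in labelled IL17RA-/- tumours and 128, 30.6 and 81.4 in WT tumours, against 4.49, 105, 6.83, 60.2 and 24.5 in labelled IL17RA-/- and 5.83, 4.14, 2.68, 20.5 and 6.95 in WT non-tumour livers. On HFD, Sqle had 114, 44.5 and 156 CPM in labelled IL17RA-/- tumours and 108, 188 and 101 in WT tumours, against 1.96, 10.3 and 55.3 in labelled IL17RA-/- and 21.3, 13.6 and 4.27 in WT non-tumour livers. All 13 tumours were above the non-tumour median of Sqle and 5 above every non-tumour liver, and its spread was wide in both tissues. Sqle rose by 2.58 ± 0.47 (limma adjusted p = 3.71e-05).

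Lss (ENSMUSG00000033105, chromosome 10, 76531588 to 76557138) encodes lanosterol synthase, which closes the sterol rings. On alcohol, Lss had 44.4, 59.2, 45.6 and 157 CPM in labelled IL17RA-/- tumours and 86.3, 50.2 and 93.2 in WT tumours, against 24.2, 86.8, 27.9, 73.2 and 47.4 in labelled IL17RA-/- and 24.0, 23.7, 22.3, 26.9 and 19.3 in WT non-tumour livers. On HFD, it had 109, 58.6 and 151 CPM in labelled IL17RA-/- tumours and 71.0, 95.5 and 70.7 in WT tumours, against 17.4, 24.9 and 60.5 in labelled IL17RA-/- and 44.7, 25.6 and 22.8 in WT non-tumour livers. Lss rose by 1.3 ± 0.22 (limma adjusted p = 1.71e-05), and all 13 tumours were above its non-tumour median. Fdft1, squalene synthase, gave no call (0.10 ± 0.20, limma adjusted p = 0.663); its lowest, median and highest levels were 15.8, 46.4 and 94.7 CPM in tumours, against 24.8, 36.2 and 131 CPM in non-tumour liver.

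Among the 9 enzymes from lanosterol to cholesterol, 5 rose and 2 fell. Dhcr7 (ENSMUSG00000058454, chromosome 7, 143823145 to 143848410) encodes the reductase of the last step in one branch. On alcohol, Dhcr7 had 42.9, 50.4, 82.0 and 106 CPM in labelled IL17RA-/- tumours and 78.5, 52.3 and 84.1 in WT tumours, against 13.9, 63.0, 15.1, 43.9 and 26.4 in labelled IL17RA-/- and 10.8, 15.3, 13.7, 13.6 and 8.26 in WT non-tumour livers. On HFD, it had 97.3, 43.9 and 108 CPM in labelled IL17RA-/- tumours and 58.9, 98.9 and 63.7 in WT tumours, against 9.5, 10.7 and 30.0 in labelled IL17RA-/- and 25.6, 14.5 and 17.1 in WT non-tumour livers. Of the 13 tumours, 8 exceeded every non-tumour liver and all 13 exceeded the non-tumour median. Dhcr7 rose by 1.97 ± 0.22 (limma adjusted p = 2.73e-08) and, like Srebf2, passed the test in each of the 4 strata.

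Ebp (ENSMUSG00000031168, chromosome X, 8185329 to 8193512) encodes the sterol isomerase of the same segment, and it moved the other way. On alcohol, Ebp had 43.7, 54.9, 48.5 and 75.6 CPM in labelled IL17RA-/- tumours and 37.3, 51.6 and 71.7 in WT tumours, against 127, 179.7, 111, 164 and 133 in labelled IL17RA-/- and 100.4, 150.3, 129, 112 and 128 in WT non-tumour livers. On HFD, Ebp had 55.4, 51.1 and 63.8 CPM in labelled IL17RA-/- tumours and 117, 39.3 and 63.6 in WT tumours, against 129, 131 and 103 in labelled IL17RA-/- and 110.2, 129.7 and 87.1 in WT non-tumour livers. All tumours but 1 WT HFD tumour lay below every non-tumour liver. Ebp fell by 1.09 on the log2 scale (SE 0.13; limma adjusted p = 8.62e-08), and it passed the test in 3 of the 4 strata. In HFD WT the value was -0.69 ± 0.28 (limma adjusted p = 0.0987).

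The other enzymes of this segment changed less or overlapped more. Tm7sf2 and Lbr both encode sterol reductases that act after Cyp51. Tm7sf2 fell by 0.84 (SE 0.24; limma adjusted p = 0.00394), with a lowest, median and highest level of 6.21, 16.6 and 39.6 CPM in tumours, against 21.7, 24.7 and 101 CPM in non-tumour liver; 10 of 13 tumours were below every non-tumour liver. For Lbr the values on alcohol were 17.8, 20.8, 17.8 and 21.5 CPM in labelled IL17RA-/- tumours and 11.9, 31.2 and 17.0 in WT tumours, against 20.2, 21.3, 20.04, 18.6 and 17.8 in labelled IL17RA-/- and 20.05, 17.0, 17.4, 18.5 and 15.6 in WT non-tumour livers. On HFD, Lbr had 18.6, 23.1 and 20.02 CPM in labelled IL17RA-/- tumours and 28.3, 35.4 and 25.4 in WT tumours, against 16.3, 13.5 and 15.7 in labelled IL17RA-/- and 24.0, 12.8 and 17.5 in WT non-tumour livers. Lbr rose by 0.30 ± 0.10 (limma adjusted p = 0.0159), with 4 tumours above every non-tumour liver and 1 below. Cyp51, the lanosterol demethylase, had a lowest, median and highest level of 31.7, 109 and 225 CPM in tumours, against 22.7, 34.4 and 296 CPM in non-tumour liver, and 12 of 13 tumours were above its non-tumour median. Msmo1, Nsdhl and Hsd17b7 together remove methyl groups from the sterol ring. Msmo1 levels were 21.1, 74.4 and 122 CPM in tumours, against 17.8, 33.1 and 254 CPM in non-tumour liver, and those of Nsdhl were 7.73, 24.2 and 44.2 CPM in tumours, against 6.22, 11.6 and 69.9 CPM in non-tumour liver. Averaged over the strata both rose, by 0.66 ± 0.28 for Msmo1 and 0.70 ± 0.26 for Nsdhl (limma adjusted p = 0.0454 and 0.0197). Every tumour lay within the range of the non-tumour livers for both genes. In labelled IL17RA-/- mice on alcohol the change was -0.79 for Msmo1, -0.68 for Nsdhl and -0.43 for Cyp51.

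Hsd17b7 and Sc5d, the desaturase that acts just before Dhcr7, gave no call over the strata. On alcohol, Hsd17b7 had 24.8, 25.5, 30.4 and 48.9 CPM in labelled IL17RA-/- tumours and 43.8, 18.1 and 31.5 in WT tumours, against 48.7, 114, 40.4, 88.3 and 47.3 in labelled IL17RA-/- and 38.7, 40.1, 40.6, 42.4 and 37.2 in WT non-tumour livers. On HFD, Hsd17b7 had 37.7, 29.6 and 54.6 CPM in labelled IL17RA-/- tumours and 58.7, 71.7 and 48.3 in WT tumours, against 36.2, 38.7 and 46.2 in labelled IL17RA-/- and 33.9, 36.3 and 45.1 in WT non-tumour livers. The tumour groups of Hsd17b7 lay on both sides of their livers, 6 tumours being below every non-tumour liver, all of them on alcohol or labelled IL17RA-/-. On alcohol, Sc5d had 282, 278, 223 and 363 CPM in labelled IL17RA-/- tumours and 329, 277 and 508 in WT tumours, against 296, 568, 293, 494 and 314 in labelled IL17RA-/- and 234, 298, 310.4, 198 and 221 in WT non-tumour livers. On HFD, it had 336, 307 and 439 CPM in labelled IL17RA-/- tumours and 426, 364 and 298 in WT tumours, against 234, 265 and 291 in labelled IL17RA-/- and 350.2, 281 and 265 in WT non-tumour livers. The tumours of Sc5d stayed inside the non-tumour range.

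In the mevalonate arm of 8 enzymes, 3 rose and 1 fell. Mvk encodes mevalonate kinase. On alcohol, Mvk had 10.4, 12.7, 10.2 and 13.4 CPM in labelled IL17RA-/- tumours and 16.8, 10.5 and 17.9 in WT tumours, against 4.65, 20.9, 7.57, 18.1 and 10.7 in labelled IL17RA-/- and 5.28, 5.82, 8.37, 4.95 and 4.85 in WT non-tumour livers. On HFD, Mvk had 17.0, 13.2 and 18.8 CPM in labelled IL17RA-/- tumours and 16.5, 13 and 15.2 in WT tumours, against 5.24, 7.52 and 8.28 in labelled IL17RA-/- and 8.27, 6.30 and 7.19 in WT non-tumour livers. All 13 tumours were above the non-tumour median, although labelled IL17RA-/- livers 2 and 4 on alcohol were as high as the highest tumours. Mvk rose by 0.84 ± 0.15 (limma adjusted p = 4.15e-05).

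Acat2, the cytosolic thiolase that joins acetyl-CoA units at the entry of the pathway, fell by 0.73 on the log2 scale (SE 0.15; limma adjusted p = 0.000128). On alcohol, Acat2 had 17.1, 22.9, 21.1 and 44.1 CPM in labelled IL17RA-/- tumours and 21.1, 29.5 and 30.7 in WT tumours, against 68.0, 90.5, 53.5, 84.8 and 40.9 in labelled IL17RA-/- and 38.1, 53.4, 46.9, 38.6 and 38.7 in WT non-tumour livers. On HFD, Acat2 had 26.3, 27.2 and 41.3 CPM in labelled IL17RA-/- tumours and 70.2, 35.3 and 30.8 in WT tumours, against 42.7, 63.2 and 49.0 in labelled IL17RA-/- and 48.7, 40.1 and 58.7 in WT non-tumour livers. Of the 13 tumours, 10 were below every non-tumour liver, and a single WT HFD tumour was above the non-tumour median. Mvd is the decarboxylase that ends the mevalonate steps, and Idi1 the isopentenyl diphosphate isomerase. Averaged over the strata they also rose, by 0.91 ± 0.27 for Mvd and 0.80 ± 0.35 for Idi1 (limma adjusted p = 0.00511 and 0.0485). In labelled IL17RA-/- mice on alcohol, however, the change was -0.04 for Mvd and -1.01 for Idi1. For both genes every tumour lay within the range of the non-tumour livers. Mvd levels were low, with a lowest, median and highest of 1.86, 7.78 and 19.1 CPM in tumours, against 1.31, 3.19 and 20.1 CPM in non-tumour liver. Fdps, farnesyl diphosphate synthase, missed the threshold at 0.66 ± 0.31 (limma adjusted p = 0.0646), with levels of 21.1, 81.0 and 148 CPM in tumours, against 18.4, 31.7 and 307 CPM in non-tumour liver. Ggps1, which makes geranylgeranyl diphosphate for protein prenylation, was the steadiest of the arm, with 7.35, 10.2 and 14.0 CPM in tumours, against 9.46, 10.5 and 14.5 CPM in non-tumour liver and a change of -0.04 ± 0.07 (limma adjusted p = 0.621).

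Of the 3 other SREBP2 targets, Stard4, a sterol carrier protein, had a lowest, median and highest level of 45.5, 94.4 and 173 CPM in tumours, against 39.0, 47.5 and 163 CPM in non-tumour liver and rose by 0.72 ± 0.20 (limma adjusted p = 0.00256). Tmem97, a membrane protein also known as the sigma-2 receptor, had on alcohol 45.9, 69.7, 57.7 and 60.7 CPM in labelled IL17RA-/- tumours and 69.2, 52.6 and 78.3 in WT tumours, against 57.7, 66.7, 59.5, 75.5 and 59.1 in labelled IL17RA-/- and 52.0, 58.9, 57.9, 48.9 and 43.9 in WT non-tumour livers. On HFD, Tmem97 had 77.2, 53.2 and 73.8 CPM in labelled IL17RA-/- tumours and 118, 69.2 and 79.4 in WT tumours, against 55.2, 56.7 and 57.6 in labelled IL17RA-/- and 54.6, 48.9 and 71.4 in WT non-tumour livers. Tmem97 rose by 0.26 ± 0.09 (limma adjusted p = 0.0145), with 4 tumours above every non-tumour liver. Rdh11, a retinol dehydrogenase, gave no call over the strata (0.36 ± 0.22, limma adjusted p = 0.147).

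**Figure D2:**
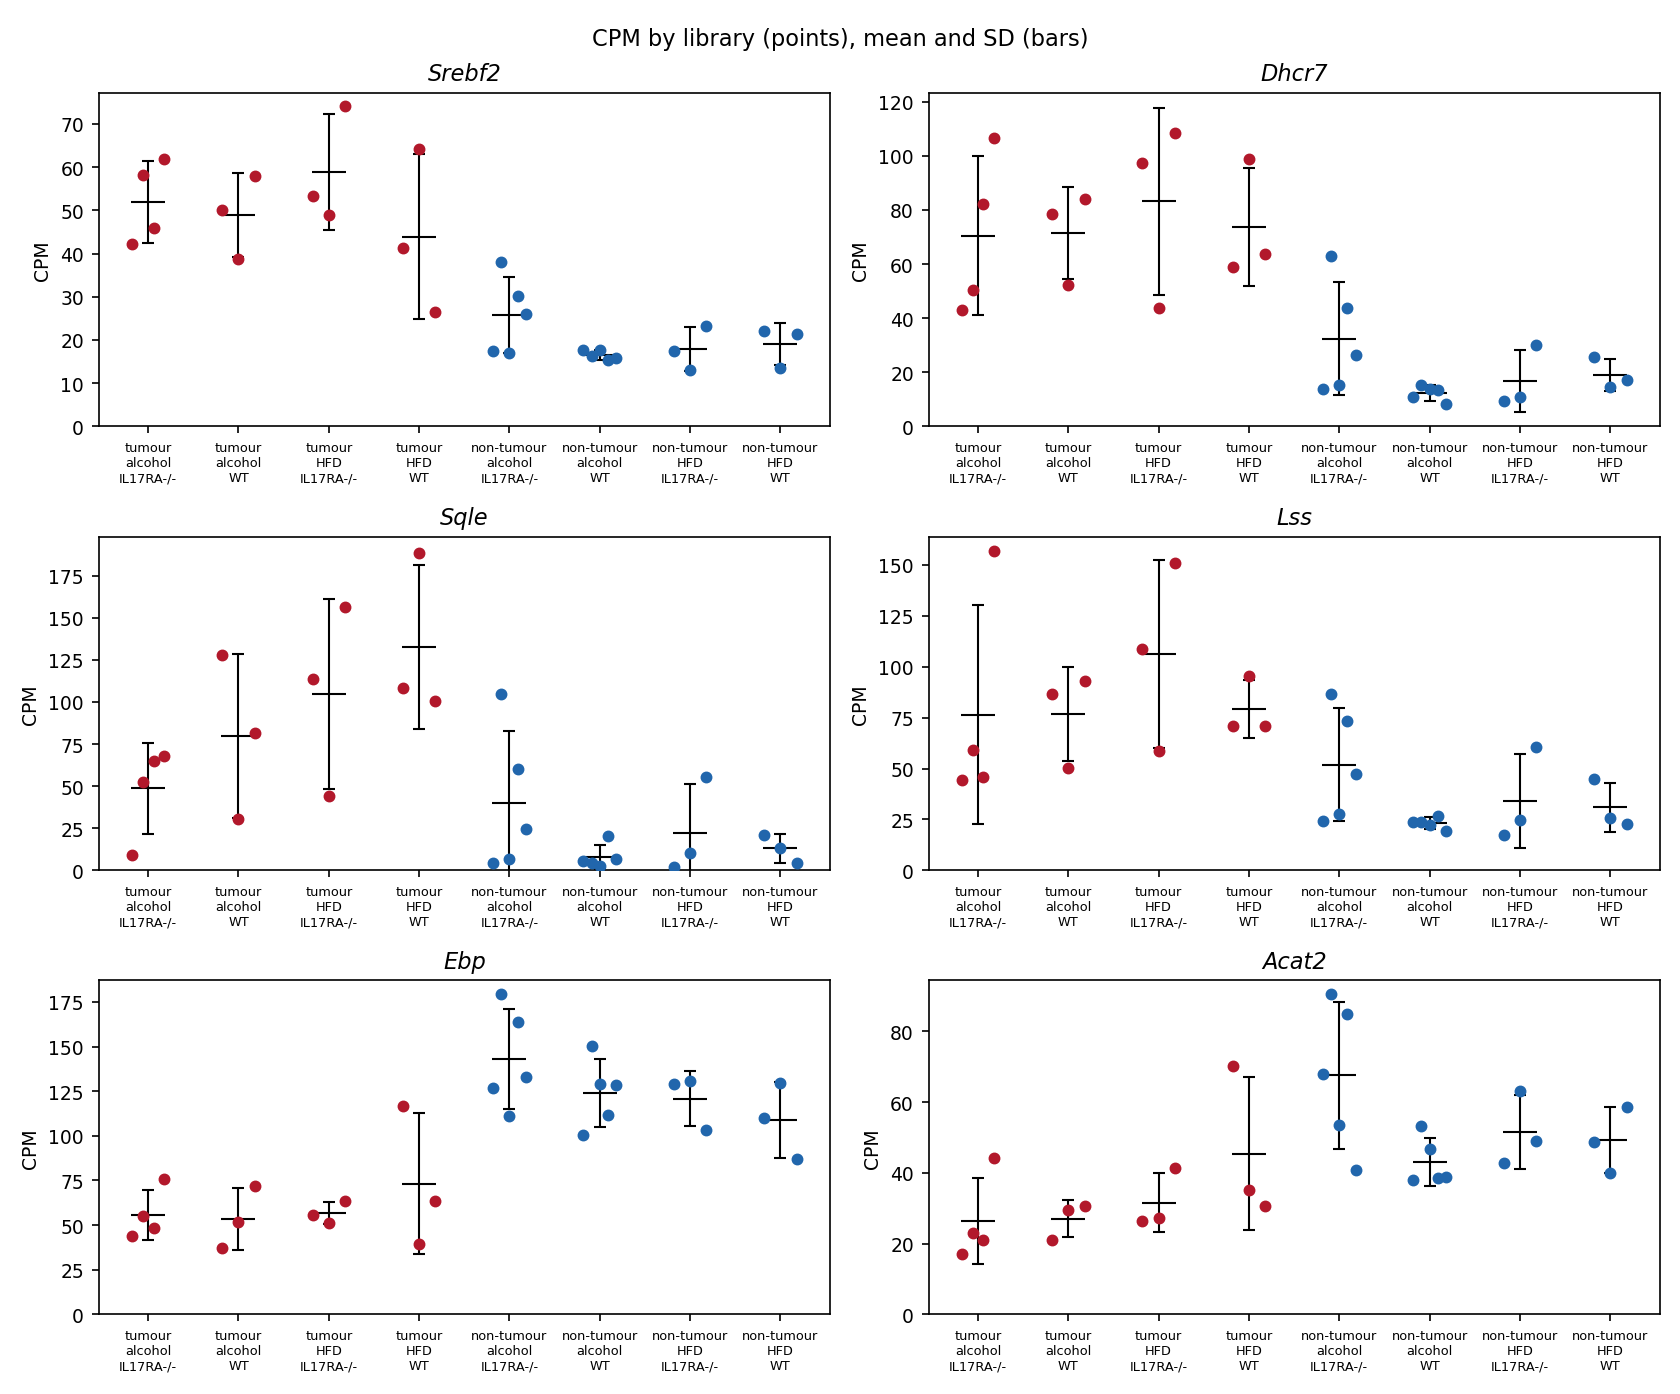
CPM of Srebf2, Dhcr7, Sqle, Lss, Ebp and Acat2 in each library (points) of the 8 groups, with group mean and SD; the axis starts at 0 and SD bars that would pass below it end there. Tumour groups of Srebf2 average 43.9 to 58.8 CPM and non-tumour groups 16.6 to 25.7 CPM, whereas Ebp averages 53.5 to 73.2 CPM in tumours and 109 to 143 CPM in non-tumour liver.

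Cell type markers moved with tissue as well, in a comparison where 36.6% of all genes tested rose and 27% fell. Kupffer cell markers fell in 11 of 12 cases, with list sums of 213 to 852 CPM in tumours against 323 to 2270 CPM in non-tumour liver. All 8 cell cycle markers rose, with sums of 48 to 387 CPM in tumours against 11.9 to 161 CPM, and 6 of 9 stellate and 5 of 6 cholangiocyte markers tested rose. Of 10 hepatocyte markers 3 rose and 5 fell, and their sum was 98630 to 216930 CPM in tumours against 70285 to 116260 CPM in non-tumour liver. The 10 most abundant genes held 16.6% to 32.2% of the counts in tumours, against 14.6% to 19.6% in non-tumour liver, and CPM are shares of those totals. The part of these shifts in the members' changes was not tested.

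The counts were then taken in each of the 4 strata; whether strata differ was tested for alcohol only, by the interaction given further on. In WT mice on HFD, 8 members rose and 0 fell in tumours (limma), beside 7.64% of all genes upward and 7.61% downward, and the median was 0.94 over members against 0.07 over all genes. For 17 of the 29 members all 3 tumours lay above all 3 non-tumour livers in this stratum, beside 12.7% of all genes. Those 17 included all 3 enzymes from squalene to lanosterol, 5 of 8 in the mevalonate arm and 6 of 9 from lanosterol to cholesterol. In order of p the called members were Dhcr7 (1.90 ± 0.47), Srebf2 (1.11 ± 0.29), Sqle (3.42 ± 1.01), Rdh11 (1.49 ± 0.46), Lbr (0.71 ± 0.22), Cyp51 (2.06 ± 0.65), Tmem97 (0.58 ± 0.19) and Mbtps2 (0.52 ± 0.18), with limma adjusted p from 0.00778 to 0.0487. These calls leaned on single libraries: 1 member was called without WT HFD tumour replicate 5 or without WT HFD non-tumour replicate 2, 3 without non-tumour replicate 3 and 5 without tumour replicate 4. Without labelled non-tumour livers 2 and 4 on alcohol, which enter this stratum only through the shared spread, 15 members rose and 0 fell, beside 15.8% of all genes called either way.

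In labelled IL17RA-/- mice on HFD, 8 members rose and 1 fell, beside 23.9% of all genes upward and 16.5% downward, and the median was 0.44 over members against 0.15 over all genes. The called members were Srebf2 (1.67 ± 0.29), Dhcr7 (2.33 ± 0.47), Ebp (-1.07 ± 0.28), Lss (1.70 ± 0.48), Mvk (1.12 ± 0.33), Scap (0.80 ± 0.26), Sqle (2.92 ± 1.01) and Stard4 (1.22 ± 0.42), followed by Mbtps2. Groups did not overlap upward for 8 members and downward for 2, beside 32.4% and 22.3% of all genes. Without labelled non-tumour replicate 2 the count of calls was 5. Labelled non-tumour liver 3 stood apart from the other 2 of its group, with the highest Sqle (55.3 CPM) and Lss (60.5 CPM) of the 3, and its oncofetal markers summed to 520.4 CPM, inside the tumour range. The fold change of Sqle was 4.01 without that liver and 1.89 without liver 1, where it was no longer called.

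In WT mice on alcohol, 6 members rose and 1 fell, beside 16.6% of all genes upward and 19.2% downward, and the median was 0.46 against 0.01. The called members were Srebf2 (1.49 ± 0.26), Dhcr7 (2.44 ± 0.42), Ebp (-1.23 ± 0.25), Mvk (1.22 ± 0.30), Lss (1.64 ± 0.43), Sqle (3.23 ± 0.90) and Scap (0.61 ± 0.24), with limma adjusted p up to 0.0471. Groups did not overlap upward for 8 members and downward for 3, beside 17% and 20% of all genes. Without the 2 labelled non-tumour libraries described below, which share the spread of this fit, 13 members were called, and without WT tumour replicate 5 the median was 0.72.

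In labelled IL17RA-/- mice on alcohol the balance was the other way, with 3 members higher and 7 lower in tumours, beside 21.8% and 18.1% of all genes (39.9% either way), and a median of -0.43 over members against 0.08 over all genes. Ebp (-1.35 ± 0.23), Acat2 (-1.36 ± 0.26), Tm7sf2 (-1.73 ± 0.42), Hsd17b7 (-0.98 ± 0.26), Pmvk (-1.07 ± 0.38), Hmgcs1 (-1.11 ± 0.42) and Insig1 (-0.98 ± 0.38) were lower, whereas Srebf2 (1.03 ± 0.24), Dhcr7 (1.23 ± 0.39) and Mbtps2 (0.38 ± 0.15) were higher, with limma adjusted p up to 0.0448. The negative median rested on 2 non-tumour libraries of this group, replicates 2 and 4: without them it was 0.11, beside -0.03 over all genes, and the calls were Srebf2, Scap, Mvk and Dhcr7 upward and Acat2 and Ebp downward. Tm7sf2, Hsd17b7, Pmvk, Hmgcs1, Insig1 and Mbtps2 then lost their calls. The count of calls was also 6 without labelled tumour replicate 4 or without labelled non-tumour replicate 2 alone. With all libraries, groups did not overlap for 1 member upward and 1 downward, beside 15.1% and 14.5% of all genes.

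Across the strata, which share no library, 8 members were higher in 4 of 4 (Mvk, Sqle, Lss, Dhcr7, Srebf2, Scap, Mbtps2 and Stard4) and 4 lower in 4 of 4 (Acat2, Tm7sf2, Ebp and Insig2). These are 27.6% and 13.8% of the members, beside 38.5% and 27.9% of all genes, and the sign of Stard4 in labelled alcohol tumours turned under rescaling.

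**Figure D3:**
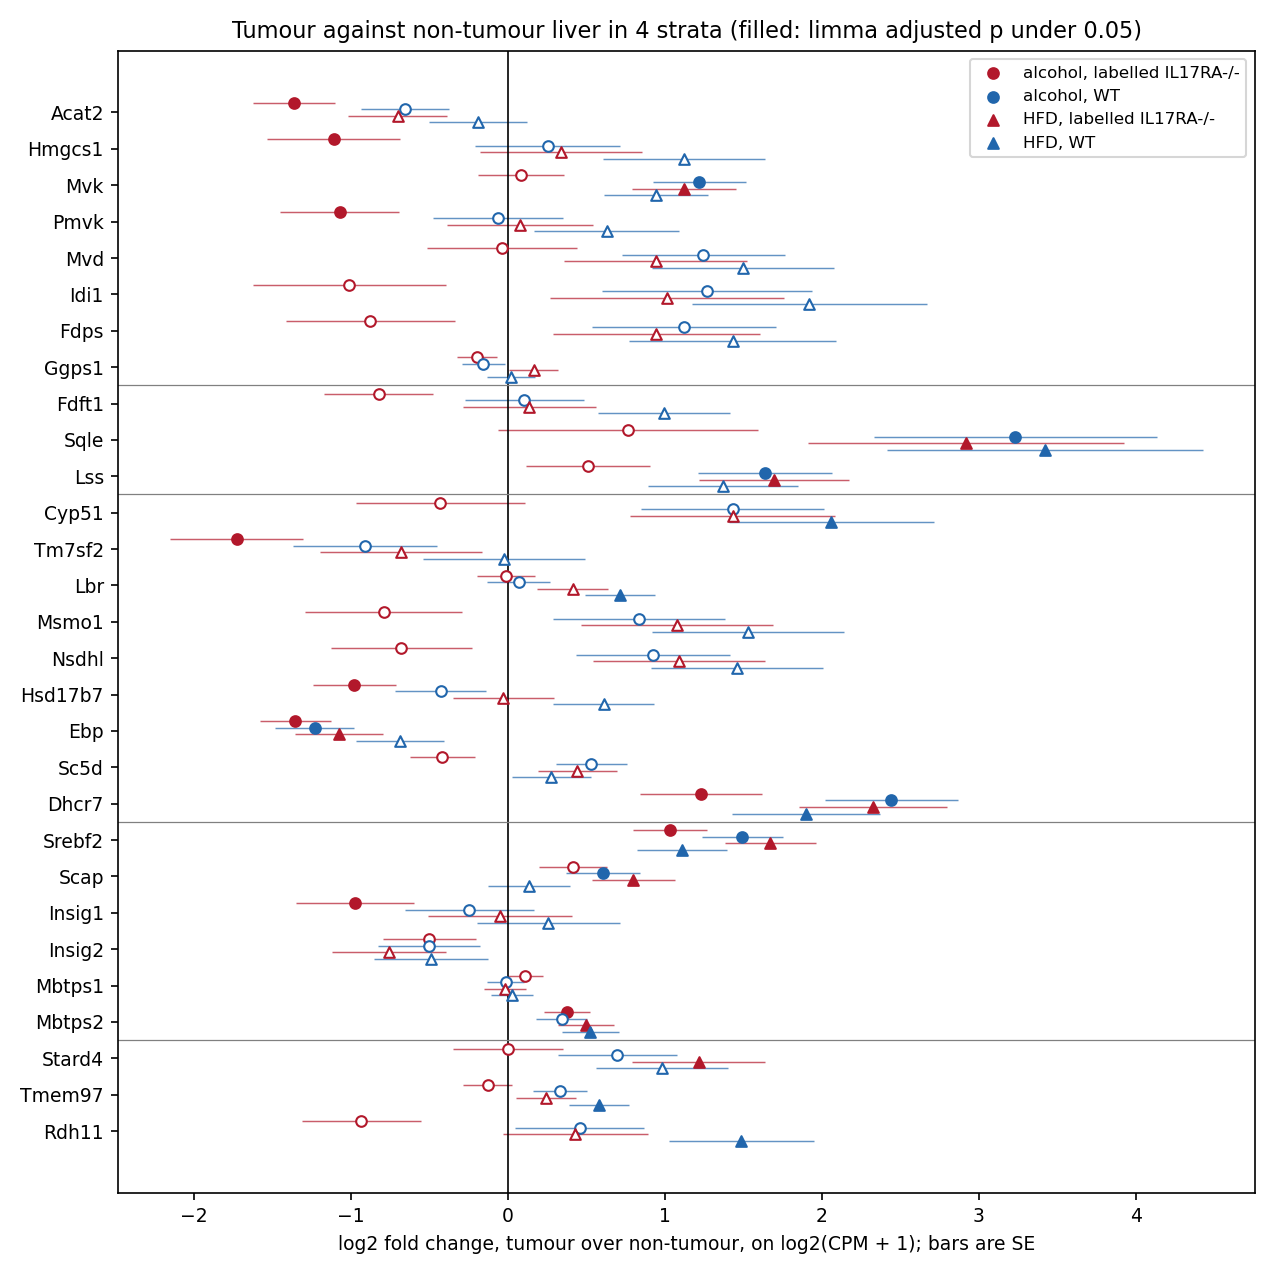
Log2 fold change of tumour over non-tumour with its SE for each of the 29 members in the 4 strata; filled points passed the limma test. Srebf2 and Dhcr7 are filled in all 4 strata, and in labelled IL17RA-/- mice on alcohol 20 of 29 members lie below 0.

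The comparison of genotype labels asked whether loss of the receptor went with other levels of the pathway. In non-tumour liver on alcohol, 26 of 29 members were higher on average in labelled IL17RA-/- than in WT livers, with a median of 0.76 against 0.01 over all genes. Limma called 0 of 12829 genes (0% called) and so 0 members; at an unadjusted p under 0.05 there were 19 members and 330 genes, and limma-voom on the recovered expected counts called 0 of both. The enzymes of the mevalonate arm had the largest median, 1.11, and the regulators the smallest, 0.04.

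The members with the smallest p were Pmvk, Hmgcs1, Rdh11 and Idi1. Hmgcs1 (ENSMUSG00000093930, chromosome 13, 119690379 to 119708260) encodes cytosolic HMG-CoA synthase. It had 154, 660.3, 168, 557 and 249.7 CPM in labelled IL17RA-/- livers and 138, 146, 152, 132 and 110.2 CPM in WT livers on alcohol. Hmgcs1 was the only member whose groups did not overlap, beside 0.335% of all genes upward and 0.0857% downward, and 2 of the 5 labelled values stood far above the other 3. Its log2 fold change was 1.15 ± 0.33, with a 95% interval of 0.44 to 1.86 and a limma adjusted p of 1.

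Idi1 (ENSMUSG00000058258, chromosome 13, 8885501 to 8892451) had 25.1, 298, 14.5, 179.8 and 36.7 CPM in labelled IL17RA-/- livers and 11.3, 14.6, 14.0, 16.3 and 10.7 CPM in WT livers. Labelled livers 2 and 4 were far above the rest and liver 3 fell within the WT range. The difference was 2.09 ± 0.63 (limma adjusted p = 1). Pmvk, phosphomevalonate kinase, had 19.2, 55.9, 12.8, 39.1 and 14.3 CPM in labelled and 10.7, 13, 12, 8.48 and 9.44 CPM in WT livers, with the same 2 libraries highest and a difference of 1.11 ± 0.32 (limma adjusted p = 1). Rdh11 had 21.2, 96.8, 23.3, 81.4 and 38.1 CPM in labelled and 25.2, 19, 16.1, 20.6 and 14.0 CPM in WT livers, again with the same 2 libraries highest, and differed by 1.17 ± 0.35 (limma adjusted p = 1).

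The values of these 4 genes in the other groups completed the picture. Hmgcs1 had 71.2, 128, 125 and 316 CPM in labelled and 194, 78.8 and 270.1 CPM in WT tumours on alcohol, and 205, 131 and 337 against 523, 335 and 237 CPM in HFD tumours. In non-tumour liver on HFD, Hmgcs1 had 119.6, 179 and 209 CPM in labelled and 175, 152 and 149.7 CPM in WT livers. No other group of Hmgcs1 reached the level of the second labelled liver on alcohol. Idi1 had 13.9, 31.3, 29.1 and 55.7 CPM in labelled and 54.6, 17.4 and 38.4 CPM in WT tumours on alcohol, 35.7, 22.9 and 74.9 against 129, 70.7 and 55.3 CPM in HFD tumours, and 9.95, 19.4 and 35.3 against 25.2, 18.7 and 17.7 CPM in HFD livers. Pmvk had 6.74, 12.3, 6.98 and 23.3 CPM in labelled and 9.47, 7.42 and 14.5 CPM in WT tumours on alcohol, 14.3, 10.04 and 18.2 against 34.7, 11.9 and 12.54 CPM in HFD tumours, and 12.4, 16.1 and 11 against 14.4, 8.18 and 10.9 CPM in HFD livers. Labelled and WT groups of Idi1 and Pmvk overlapped in all of these. Rdh11 had 16.3, 19.2, 18.8 and 40.8 CPM in labelled and 28.8, 22.6 and 26.8 CPM in WT tumours on alcohol, 25.8, 18.6 and 50.9 against 121, 62.7 and 41.0 CPM in HFD tumours, and 17.1, 20.4 and 27.6 against 25.9, 24.0 and 21.0 CPM in HFD livers. The highest tumour value of Rdh11 came from WT HFD tumour replicate 4.

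**Figure D4:**
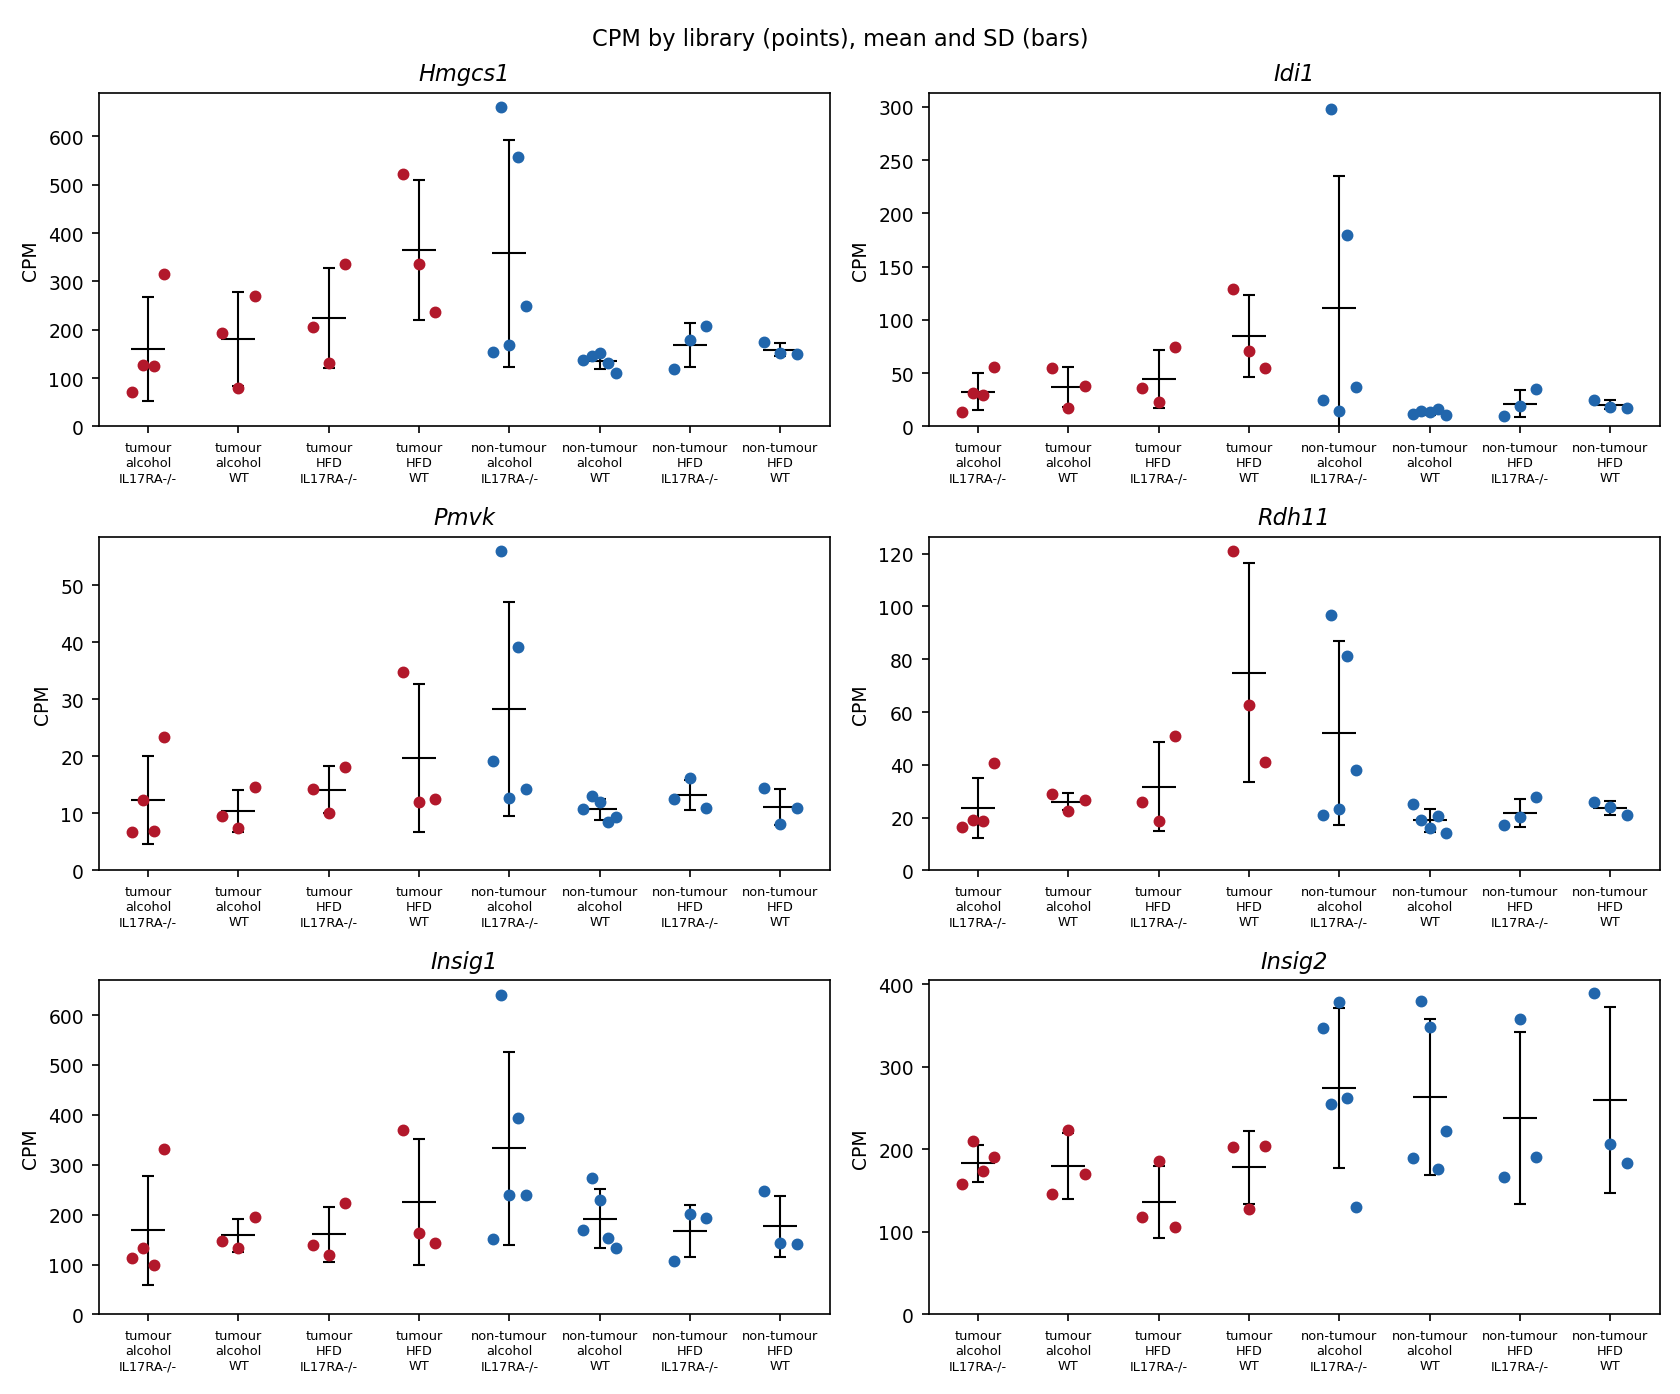
CPM of Hmgcs1, Idi1, Pmvk, Rdh11, Insig1 and Insig2 in each library (points) of the 8 groups, with group mean and SD; the axis starts at 0 and SD bars end there. In labelled IL17RA-/- non-tumour liver on alcohol, Hmgcs1 averages 358 ± 235 CPM and 2 of the 5 points stand apart, against 135 ± 16 CPM in WT livers.

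The high values came from the same libraries in most members. In 22 of the 29 members, labelled non-tumour livers 2 and 4 on alcohol were the 2 highest of the 16 non-tumour libraries. The same holds for 329 of 12829 genes tested (2.56%). These 2 livers were picked out because the members were high in them, so the shares are a description and no test. The 7 members without this order were Ggps1, Lbr, Scap, Insig2, Mbtps1, Mbtps2 and Tmem97. The mean log2 level over the 29 members was 5.07, 6.65, 5.07, 6.38 and 5.51 in the 5 labelled livers, against 4.93, 5.06, 4.96, 4.98 and 4.77 in the 5 WT livers. Both libraries also stood apart in other lists. Their 12 Kupffer cell markers summed to 339 and 323 CPM, against 1074 to 1887 CPM in WT livers and 1179 to 1866 CPM in the other 3 labelled livers, and no marker of that list was at 0. Monocyte-derived macrophage markers summed to 3.21 and 4.5 CPM there, against 16.4 to 106 CPM in WT livers and 37.6 to 135 CPM in the other 3 labelled livers, again with no marker at 0. Cell cycle markers summed to 11.9 and 21.9 CPM, against 30.4 to 59.9 CPM in WT livers and 77.7 to 90.1 CPM in the other labelled livers, with 1 of 8 at 0 in library 2. The 10 hepatocyte markers summed to 86073 and 78170 CPM, inside the 75532 to 87796 CPM of WT livers. The part of these differences in the members' levels was not tested.

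Without livers 2 and 4, 26 of 29 members were higher on average in labelled IL17RA-/- than in WT livers, with a median of 0.28, and so were 9433 of 12795 genes tested, with a median of 0.09. The 26 were not the same members: Tm7sf2 was 0.73 with all libraries and -0.04 without the 2, and Scap 0.03 and -0.24, while Ggps1 and Mbtps2 were below 0 with all libraries and above it without the 2. Mbtps1 was below 0 in both. Limma then called 0 members and 0 genes, with 5 members and 584 of 12795 genes at an unadjusted p under 0.05. The 5 were Hmgcs1 (0.47), Pmvk (0.48), Idi1 (0.80), Fdft1 (0.37) and Rdh11 (0.49, all log2 fold changes). Marker lists moved as well. The Kupffer cell list had a median of -0.62 with all libraries, where 12 of its 12 genes were negative and 0 were called, and 0.17 without the 2. Without them 8 of 8 cell cycle markers were positive (median 0.92, 6 of 8 at an unadjusted p under 0.05, 0.18 with all libraries). Of the monocyte-derived macrophage markers 7 of 7 were then positive (median 0.66, -0.10 with all libraries). Their part in the members' difference was not tested.

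Lists of neighbouring pathways did not all move with the members in this comparison, and 0 of their genes were called. Of 18 fatty acid synthesis and SREBP1 genes tested 14 were positive (median 0.43), and without livers 2 and 4, 17 of 18 (median 0.37). Of 10 LXR targets and cholesterol efflux genes, 1 was positive (median -0.16), but 5 of 10 without livers 2 and 4, with a median of 0.01. That list also holds the receptor genes Nr1h3 and Nr1h2 and the HDL receptor gene Scarb1. Bile acid synthesis genes (0.04) and isoprenoid and dolichol genes (0.00) lay near the median of all genes. In livers 2 and 4 the mean log2 level of the LXR list was 6.61 and 6.88, below every other non-tumour library.

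**Figure D5:**
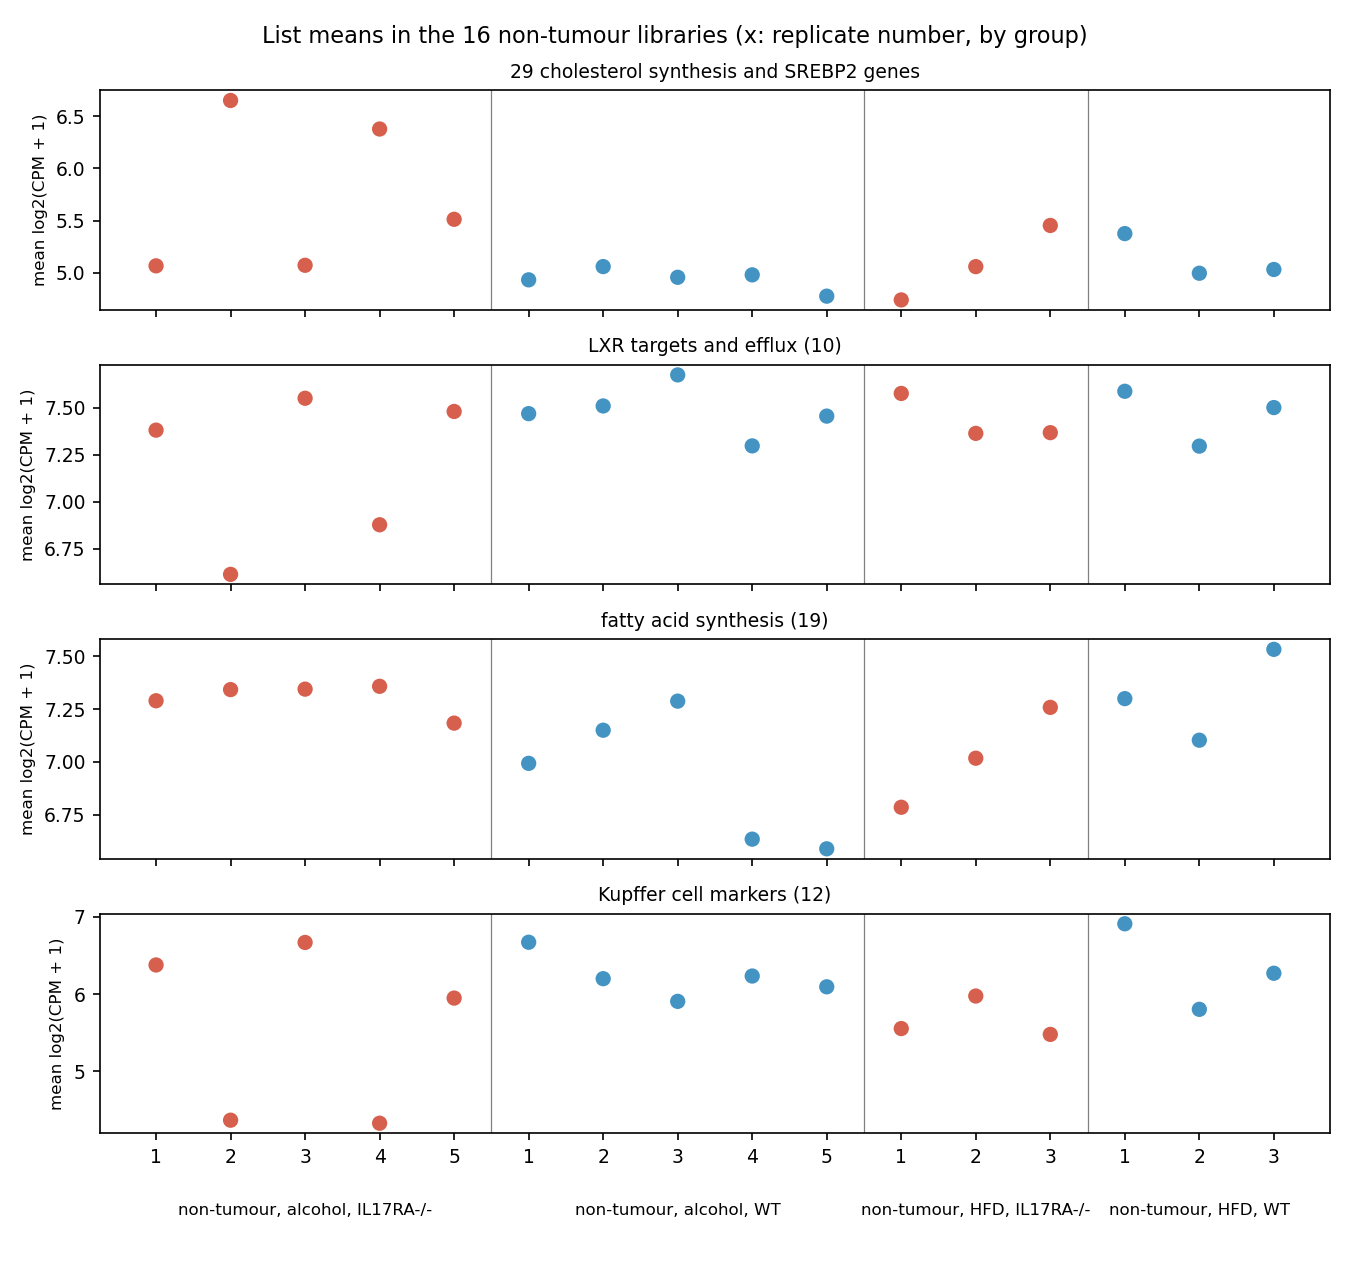
Mean log2(CPM + 1) of 4 gene lists in the 16 non-tumour libraries: the 29 members, 10 LXR target and efflux genes, 19 fatty acid synthesis genes and 12 Kupffer cell markers. Red points are labelled IL17RA-/- and blue points WT. Labelled livers 2 and 4 on alcohol are highest in the member list (6.65 and 6.38) and lowest in the LXR list (6.61 and 6.88).

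In the 3 other comparisons of genotype labels, 0 members were called. In non-tumour liver on HFD the median was -0.06 over members and -0.12 over all genes, with 0 members and 461 genes at an unadjusted p under 0.05; limma and limma-voom both called 0 genes. Groups overlapped for all 29 members, beside 1.09% of all genes without overlap upward and 8.6% downward. Under rescaling the member median was 0.06, so no direction is given. The members with the smallest p were Mbtps2 (-0.27 ± 0.17), Lbr (-0.20 ± 0.17), Ebp (0.16 ± 0.19) and Sc5d (-0.18 ± 0.24). In tumours on alcohol the median was -0.12 against 0.09, with 0 members and 261 genes at an unadjusted p under 0.05 and 0 genes called by either tool. Groups of all 29 members overlapped, beside 3.29% of all genes without overlap upward and 0.935% downward. The smallest p there belonged to Sc5d (-0.35 ± 0.22), Mvk (-0.32 ± 0.21), Sqle (-0.80 ± 0.65) and Tmem97 (-0.18 ± 0.22). Under rescaling 28 of 29 members were negative there, 20 without it.

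In HFD tumours the median was -0.40 over members against -0.09 over all genes, and 22 of 29 members were lower in labelled IL17RA-/- than in WT tumours. Limma called 0 members and 213 genes (1.61%; 0.603% upward and 1% downward), limma-voom 0 members and 211 genes, and 2 members and 2986 genes had an unadjusted p under 0.05. The 2 were Scap, at 0.72 ± 0.25 (limma adjusted p = 0.12), and Rdh11, at -1.19 ± 0.42 (limma adjusted p = 0.124). Next came Lbr (-0.50 ± 0.27) and Idi1 (-0.99 ± 0.53). Groups did not overlap for Scap upward, beside 8.15% of all genes, nor for Lbr downward, beside 16.5%. Without WT tumour replicate 5, Scap passed the limma test at 0.91. The count over all genes was unstable, 5 in a fit of these 2 groups alone and 616 under rescaling, which also turned the share of higher calls to 67.5%, beside 37.6%. Among genes of neighbouring sterol lists, 4 are named. Me1, the malic enzyme that supplies NADPH, averaged 43.2 ± 8.17 CPM in labelled and 141 ± 72.1 CPM in WT HFD tumours (-1.56, limma adjusted p = 0.0373), and Npc2, a lysosomal cholesterol carrier, 69.0 ± 7.70 against 107 ± 8.85 CPM (-0.63, limma adjusted p = 0.0416). Scarb1, the HDL receptor, averaged 282 ± 19.3 against 157 ± 38.9 CPM (0.87), and Syvn1, a ubiquitin ligase of the endoplasmic reticulum, 96.0 ± 14.0 against 50.4 ± 18.3 CPM (0.96, both limma adjusted p = 0.0436).

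The comparison of diets set alcohol against HFD within a genotype label and tissue. It shares its libraries with the comparisons above, and labelled livers 2 and 4 enter both. In labelled IL17RA-/- non-tumour liver, 28 of 29 members were higher on alcohol, with a median of 0.62 against 0.05 over all genes. Limma and limma-voom called 0 genes; 10 members and 745 genes had an unadjusted p under 0.05. For Lbr, Sc5d and Tmem97 all 5 alcohol livers were above all 3 HFD livers, beside 3.53% of all genes. The margins were narrow. The lowest alcohol liver had 57.696 CPM of Tmem97 against 57.628 CPM in the highest HFD liver. For Sc5d these were 293.37 and 291.29 CPM, and for Lbr 17.8 and 16.3 CPM. Sc5d, for example, had 296, 568, 293, 494 and 314 CPM on alcohol and 234, 265 and 291 CPM on HFD. The smallest p belonged to Rdh11 (0.99 ± 0.40), Hsd17b7 (0.62 ± 0.26), Sc5d (0.52 ± 0.22) and Insig1 (0.87 ± 0.38). Without labelled livers 2 and 4 the median was 0.17.

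In WT non-tumour liver the diets gave a member median of -0.18 against -0.08, with 0 members and 541 genes at an unadjusted p under 0.05 and 0 genes called by limma or limma-voom. The smallest p belonged to Dhcr7 (-0.58 ± 0.44), Mvd (-0.66 ± 0.53), Sc5d (-0.25 ± 0.22) and Ebp (0.19 ± 0.17). Idi1 was the only member without overlap, with 11.3, 14.6, 14.0, 16.3 and 10.7 CPM on alcohol and 25.2, 18.7 and 17.7 CPM on HFD, beside 2.57% of all genes downward. The replicate numbers may pair these libraries, and with them as a block 0 members were called and the median was -0.11.

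In WT tumours, 25 of 29 members were lower on alcohol than on HFD, with a median of -0.64 against -0.17 over all genes. Limma called 0 members and 1 gene (0.00754%) and limma-voom 0 genes; 6 members and 2126 genes had an unadjusted p under 0.05. For Cyp51, Fdft1, Acat2, Hsd17b7, Nsdhl, Idi1 and Rdh11 all 3 alcohol tumours were below all 3 HFD tumours, beside 12.1% of all genes. The smallest p belonged to Rdh11 (-1.35 ± 0.42, limma adjusted p = 0.2), Hsd17b7 (-0.98 ± 0.33), Fdft1 (-1.09 ± 0.43) and Lbr (-0.64 ± 0.27). Fdft1 had 50.2, 15.8 and 46.4 CPM on alcohol and 94.7, 71.4 and 56.3 CPM on HFD. Without WT HFD tumour replicate 4, which was the highest of the 13 tumours in 15 members, the median was -0.29. Under rescaling, which moved the median of all genes by 0.15, the median of members was -0.48. The sign of 5 members (Mvk, Ggps1, Lss, Dhcr7 and Mbtps1) then changed, so that 9 members were positive. All 7 markers of monocyte-derived macrophages were negative in this comparison (median log2 fold change -1.3), with sums of 32.6 to 74.9 CPM on alcohol against 115 to 157 CPM on HFD; their part was not tested.

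In labelled IL17RA-/- tumours, 26 of 29 members were lower on alcohol, with a median of -0.33 against 0.00. Limma and limma-voom called 0 genes, and 1 member and 293 genes had an unadjusted p under 0.05. The smallest p belonged to Mvk (-0.45 ± 0.21), Insig2 (0.46 ± 0.23), Sqle (-1.23 ± 0.65) and Nsdhl (-0.68 ± 0.42).

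Interactions tested whether these differences themselves differed, and limma and limma-voom called 0 genes in each of 3. Between genotype label and diet in non-tumour liver the member median was 0.80 against 0.13 over all genes, with 27 of 29 positive and 3 members and 529 genes at an unadjusted p under 0.05. The leading members were Sc5d (0.78 ± 0.31), Rdh11 (1.31 ± 0.57), Dhcr7 (1.45 ± 0.63) and Idi1 (2.18 ± 1.03). Without labelled livers 2 and 4 the median was 0.32. In tumours the same interaction had a median of 0.27 against 0.17, with 1 member, Scap (-0.88 ± 0.34, limma adjusted p = 0.318), and 1757 genes at an unadjusted p under 0.05. Between genotype label and tissue on alcohol the median was -0.93 against 0.07, with 27 of 29 negative and 10 members and 338 genes at an unadjusted p under 0.05. It was led by Sc5d (-0.95 ± 0.31), Mvk (-1.13 ± 0.40), Idi1 (-2.28 ± 0.91) and Fdps (-2.0 ± 0.80), and without labelled livers 2 and 4 the median was -0.39.

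Other genes of sterol metabolism were counted over the same tumour comparison of the 4 strata. The counts below stand beside 36.6% of all genes tested upward and 27% downward. Of 8 bile acid synthesis genes 7 fell and 1 rose, with a median of -2.47. Cyp8b1, the sterol hydroxylase that sets the share of cholic acid, averaged 18.8 ± 33.9 CPM in tumours and 274 ± 99.7 CPM in non-tumour liver (SD, n = 13 and 16). Its fold change was -4.5 ± 0.32 (limma adjusted p = 1.59e-11). Cyp27a1, the mitochondrial sterol hydroxylase, fell by 2.60 (SE 0.13; limma adjusted p = 1.30e-13). Of 13 genes of esterification, transfer and lysosomal release, 7 rose and 3 fell; Lcat, which esterifies plasma cholesterol, fell by 0.88 (SE 0.07; limma adjusted p = 2.28e-10). Of 15 isoprenoid and dolichol genes 5 rose and 8 fell, and of 10 LXR targets and efflux genes 3 rose and 5 fell, with medians of -0.17 and -0.25. Of 10 genes of sterol-regulated degradation in the endoplasmic reticulum 5 rose and 2 fell, with a median of 0.22. Of 19 fatty acid synthesis and SREBP1 genes 7 rose and 6 fell, with a median of 0.15. Thrsp of that list, a nuclear protein that favours lipogenesis, averaged 20.7 ± 19 CPM in tumours and 257 ± 120.2 CPM in non-tumour liver and fell by 3.87 (SE 0.31; limma adjusted p = 9.69e-11).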

How the data were processed

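RNA of 13 tumours and 16 non-tumour livers was extracted with a PureLink kit and made into stranded polyA libraries, per the labels' protocols. The aligner STAR 2.5.1a, the quantifier RSEM 1.3.0 and build GRCm38 appear in the submitters' processing notes; the gene annotation and any filter the sources used here do not give. What the authors deposited is CPM, with each library summing to 1000000. Comparing the low values of each library gave back the expected counts behind the CPM values. Of the nonzero values 83.9% to 86.4% were whole within 0.002 counts and 100% were whole hundredths, and depth was 3213695 to 9169117 counts in tumours and 4653422 to 9660584 in non-tumour liver.

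Genes at or above 1 CPM in at least 3 libraries of a fit were tested as log2(CPM + 1) with limma 3.58.1 in R 4.3.3 (trend), two-sided, with Benjamini-Hochberg adjustment over all genes tested and a threshold of 0.05. The tissue comparisons and the genotype-by-tissue interaction used all 29 libraries (13586 genes), the others the 16 non-tumour (12829) or 13 tumour libraries (13269). The fit was tested on simulated data. Alternatives were a pseudocount of 0.1, no filter, rescaling by median-ratio size factors, the compared groups alone, limma-voom on the recovered expected counts, the replicate number as a block, and leaving out each library, 4 libraries that an earlier look at these data doubted, or labelled non-tumour livers 2 and 4 on alcohol. The block fits kept only libraries whose number occurs in every compared group.

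Each comparison names its called members, up to 8 in order of p; where fewer than 4 were called, the 4 with the smallest p. Members and gene lists were chosen with earlier results of these data known. Marker genes Ighm and H19 had no row and were not used here; other enzymes and targets of the pathway are not reported here. The series' design text speaks of liquid ethanol feeding with pair feeding, whereas the sample labels speak of a high-fat diet with or without alcohol; the sample labels were used. Same-numbered libraries deviated together in every pair in 1 comparison, WT non-tumour liver on alcohol and HFD (correlations 0.338, 0.268 and 0.134). The labels do not say what the numbers mark.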

Additional observations from a re-analysis of the deposited data

Results flagged for a closer look

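Single libraries far from the others of their group were looked for in each group of 4 or more with Dixon's test at the 95% level. Chance flags about 1 of 20 groups, and 8 of 87 tests of a member in a group were flagged. The test looks for 1 library alone, so 2 high libraries of a group can hide each other. The lack of flags in labelled non-tumour livers on alcohol, where livers 2 and 4 were high together, therefore does not mean that no library stood apart. In 1 labelled IL17RA-/- tumour on alcohol, replicate 7, the library with the lowest depth (3213695 counts), Lss was 156.5 CPM against 59.2 CPM in the next library of its group. The same library had 331.7 CPM of Insig1 against 132.7 CPM and 40.76 CPM of Rdh11 against 19.2 CPM.

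The other 5 lay in WT non-tumour livers on alcohol, each above its group. Mvk was 8.368 CPM in replicate 3 against 5.82 CPM in the next library, Ggps1 was 14.46 CPM in replicate 1 against 11.01 CPM, and Sqle was 20.49 CPM in replicate 4 against 6.95 CPM. In replicate 2, Tm7sf2 was 34.68 CPM against 26.1 CPM and Nsdhl 14.7 CPM against 9.47 CPM.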

How the results depend on the processing

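Over the 4 strata together, 16 to 22 members were called under the settings other than leaving out 1 library, with a median of 0.32 to 0.41. The upper ends of both ranges came from the fit without labelled livers 2 and 4 on alcohol. When each library was left out in turn, 17 to 20 members were called. In labelled IL17RA-/- mice on alcohol, 10 members were called in tumours against non-tumour liver, 6 in the compared groups only, 6 with the replicate number as a block, 6 without labelled livers 2 and 4, and 6 to 12 with 1 library left out. The block fit kept only libraries whose number occurs in both groups, here replicates 4 and 5, so 2 tumours and 2 livers, high liver 4 included. In that smaller fit Srebf2 (0.80), Dhcr7 (0.44), Pmvk (-1.29) and Tm7sf2 (-2.18) were no longer called. An effect of the block and one of the fewer libraries cannot be told apart. In WT mice on alcohol the count was 7, but 14 in the compared groups only and 13 without labelled livers 2 and 4. It was 8 with the block, again on replicates 4 and 5 alone. With 1 library left out it was 6 to 10, and the median ranged from 0.36 to 0.72. On HFD, 1 to 8 members were called in WT and 5 to 9 in labelled IL17RA-/- mice with 1 library left out, and 15 in WT without labelled livers 2 and 4. No block was possible between tumours and non-tumour liver on HFD, nor over the 4 strata, because the HFD groups share no replicate numbers. In the other comparisons that allowed a block, the block fit called 0 members. Whether equal numbers mark pairs is not stated. Alcohol against HFD in WT tumours had a median of -0.74 to -0.29 with 1 library left out and -0.29 without the 4 doubted libraries. Without labelled livers 2 and 4 the medians of the interactions of genotype label with diet in non-tumour liver and with tissue were 0.32 and -0.39. Between labels in HFD tumours 0 to 1 members were called with 1 library left out, and 0 to 1174 genes beside 213. Lbr between labels in HFD non-tumour liver was -0.20, and -0.41 to 0.014 with 1 library left out, the positive value being without WT replicate 1. For members named in a comparison, 574 of the other values kept their side of the threshold and 30 lost their call under the settings other than leaving out 1 library. Those settings include the fits without the doubted libraries and without labelled livers 2 and 4. With 1 library left out, 820 kept it and 50 lost it. Both totals of kept values include named members that were not called in the main fit. Those could not lose a call, so the losses fall on the called members alone. Rescaling moved the median of all genes by over 0.1 in 4 comparisons: between labels in HFD non-tumour liver (0.12), between diets in WT tumours (0.15) and in both interactions of label with diet (-0.14 in non-tumour liver, -0.15 in tumours). The cause was not tested. Depth limits low members such as Mvd and Sqle in non-tumour liver, where values of a few CPM rest on few counts.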
